A study of Mus musculus with 17 samples.

Results

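The genes described here are 10 members of the NF-kappaB pathway, measured in mouse alveolar type 2 (AT2) cells, which make the surfactant of the lung. They are the DNA-binding subunits Nfkb1, Nfkb2, Rela and Relb, the inhibitor Nfkbia, the ubiquitin-linked brakes Tnfaip3, Tnip1 and Tnip3, the survival gene Birc3 and the adhesion gene Icam1. They were chosen by symbol, and all 10 were found among the 43430 gene IDs of both count tables, and all 10 passed the filter on low counts in both. Flow-sorted AT2 cells came from C57BL/6J mice aged 2 months. The vehicle group (4 libraries) and the ISRIB group (4 libraries) came from naive, that is uninjured, mice sampled 24 h after vehicle or ISRIB, a small molecule that counters the integrated stress response. Their libraries were made from poly(A) RNA. The naive group (4 libraries) was likewise uninjured, and the bleomycin group (5 libraries) was sampled 14 days after bleomycin, a drug that injures the lung. Both were made from total RNA, and the labels of both also give a vehicle treatment and saline. The labels do not say whether each library came from its own mouse, so p-values measure the spread between these libraries, which may be technical. No level was compared between the kits, and fold changes are only set side by side.

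NF-kappaB is a family of transcription factors that work as pairs of subunits and are held in the cytoplasm by IkB proteins. In the canonical branch, receptors for TNF, IL-1 and microbial products switch on a kinase complex that marks IkB-alpha, the product of Nfkbia, for destruction and so frees Rela with the processed product of Nfkb1. In the non-canonical branch, receptors such as the lymphotoxin beta receptor trigger processing of the Nfkb2 product, which pairs with Relb. Active NF-kappaB raises its own brakes, among them Nfkbia and Tnfaip3, which makes these transcripts familiar readouts of the pathway. In the lung, the epithelium uses it in the response to microbes and injury.

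The promoters of these genes are shown first, since many of them are known targets of the factor they control. RefSeq windows (GRCm38.p6) of 250 bases before to 50 bases after a gene start were listed for 8 members, in 11 windows. The NF-kappaB consensus, searched on both strands, matched in a window of 5 of the 8, namely Nfkb2, Nfkbia, Tnfaip3, Tnip1 and Tnip3. Of all 27025 genes with such windows, 9.55% held a match, as did 8.46% of the 32851 windows. The motif GGAAATTCC, searched on both strands and added after these sequences had been read, matched in Nfkbia, Tnfaip3 and Icam1, against 0.381% of all genes and 0.317% of all windows. Because it was added after these sequences had been read, those shares cannot show an excess in these genes. This motif overlaps the consensus in Nfkbia. Rela and Birc3 held neither in this window. These are matches of letters, not measured binding sites.

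The matched letters are alike between genes because fixed patterns were searched. Stretches around these matches are printed to show where they lie. They read as follows, 5′ to 3′ on each gene's strand in GRCm38.p6, with the matched letters in capitals.
Nfkbia, chr12:55492648-55492747, minus strand: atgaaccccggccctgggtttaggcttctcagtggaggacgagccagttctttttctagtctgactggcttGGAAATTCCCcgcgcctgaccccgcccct
Tnfaip3, chr10:19015411-19015540, minus strand: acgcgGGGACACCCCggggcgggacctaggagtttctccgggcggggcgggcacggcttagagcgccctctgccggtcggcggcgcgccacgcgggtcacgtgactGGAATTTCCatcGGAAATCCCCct
Tnip1, chr11:54962941-54963040, minus strand: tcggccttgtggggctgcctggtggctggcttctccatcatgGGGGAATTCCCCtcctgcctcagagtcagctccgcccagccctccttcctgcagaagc
Tnip3, chr6:65590298-65590397, plus strand: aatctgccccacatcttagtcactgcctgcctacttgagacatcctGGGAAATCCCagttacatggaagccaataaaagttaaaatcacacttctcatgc
Nfkb2, chr19:46304688-46304717, plus strand: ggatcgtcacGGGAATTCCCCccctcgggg
Icam1, chr9:21015760-21015859, plus strand: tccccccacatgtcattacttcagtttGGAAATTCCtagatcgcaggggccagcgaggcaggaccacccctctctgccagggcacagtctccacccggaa
In Nfkbia the match lay at -29 to -20 from the gene start, in Tnip1 at -58 to -47 and in Tnip3 at -54 to -45. Tnfaip3 held consensus matches at -125 to -116 and at -12 to -3, with the added motif between them at -24 to -16. The Icam1 match, of the added motif only, lay farther out, at -153 to -145. Nfkb2 had matches at -39 to -29 and at -11 to -2 of its first window, and others in its further windows. The RefSeq start of Tnip3 (65590398) lies inside the GENCODE gene model, which begins at 65525313. So do the first RefSeq starts of Tnfaip3 (19015410, minus strand, in a model reaching to 19015657) and Nfkb2 (46304737, in a model beginning at 46304320). The printed stretches of Tnip3, Tnfaip3 and Nfkb2 thus lie within their gene models. The starts used in these cells were not measured.

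**Figure D1:**
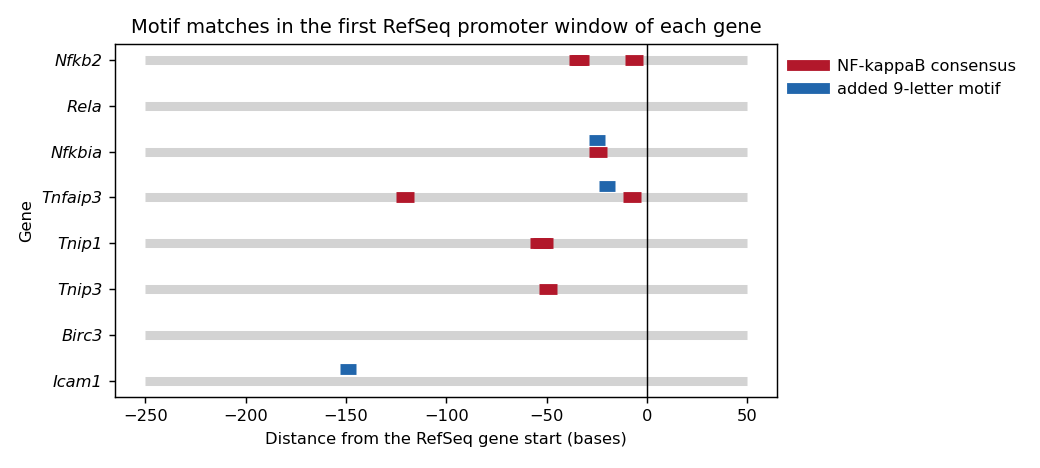
Position of motif matches (horizontal axis, bases from the RefSeq gene start) in the first window of each of the 8 genes with a window (rows). Matches in Nfkbia, Tnip1 and Tnip3 lie within 60 bases before the start, the Icam1 match lies at -153 to -145, and Rela and Birc3 have none.

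The poly(A) libraries held 10493574 to 15727139 counts, of which 9769 to 14160 fell on the 10 genes. The total-RNA libraries held 3295257 to 6333166 counts, with 1817 to 6204 on the 10 genes, and 11.8% to 25.1% of their counts fell on models resembling ribosomal RNA. All 12 AT2 markers were tested in both tables, with sums of 188156 to 199784 CPM (the usual scaling of counts to library size) in the poly(A) libraries. In the total-RNA libraries they summed to 85636 to 93184 CPM in naive and to 53696, 64359, 93786, 78101 and 83376 CPM in bleomycin libraries 1 to 5, so bleomycin 1 and 2 stood apart below the rest, and results that rest on them are also given without both, an alternative added after the data were seen. Etv5 was called lower after ISRIB, and after bleomycin Napsa and Sftpd were called higher and Nkx2-1 and Etv5 lower. Macrophage and monocyte markers summed to 6.32 to 11.6 CPM in every library, with C1qa at 0 throughout. Lymphocyte markers summed to at most 1.68 CPM in any library, and neutrophil markers to at most 8.30 CPM. Few genes of these lists could be tested (2 of 14 macrophage and monocyte genes in each comparison, 1 of 8 neutrophil genes after ISRIB and 0 after bleomycin, and 0 of 10 lymphocyte genes), so their calls say little. Airway markers summed to 3427 to 3826 CPM in vehicle and 2106 to 3741 CPM in ISRIB libraries, with ISRIB 4 lowest. In total RNA they summed to 412 to 861 CPM in naive and 484 to 866 CPM in bleomycin libraries. Of 8 airway markers 6 were tested in each comparison. Tppp3 was called lower after ISRIB, and Foxj1 and Ccdc153 higher after bleomycin. The part of airway markers in the results was not tested. Sums of the alveolar type 1, endothelial and fibroblast markers overlapped between vehicle and ISRIB libraries, with no gene called.

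Per length, Icam1 was the most abundant of the 10 and Tnip3 the least, in each of the 4 groups. Levels are given as RPKM, CPM per kilobase of merged exons. In vehicle libraries the mean was 124 ± 5.61 RPKM for Icam1, 31.1 ± 1.54 for Nfkbia, 25.2 ± 1.13 for Rela, 13.3 ± 0.84 for Birc3 and 12.2 ± 0.36 for Nfkb2 (SD, n = 4). Below these stood Nfkb1 at 7.91 ± 0.33 RPKM, Tnip1 at 7.76 ± 0.60, Relb at 3.77 ± 0.42, Tnfaip3 at 2.46 ± 0.24 and Tnip3 at 0.23 ± 0.04 (SD, n = 4). Neighbours in this order were separated in every library, except that Birc3 overlapped Nfkb2 and Nfkb1 overlapped Tnip1. Among the subunits Rela was highest and Relb lowest per length in uninjured poly(A) libraries. In naive total-RNA libraries Icam1 (69.5 ± 3.55 RPKM, n = 4) was again first and Nfkbia (17.6 ± 1.26) second, and each pair of neighbours from Nfkbia down to Nfkb1 overlapped.

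ISRIB against vehicle asked whether these transcripts differed 24 h after the drug in uninjured AT2 cells. None of the 10 genes passed an adjusted p of 0.05 by edgeR's quasi-likelihood test with Benjamini-Hochberg adjustment over 12054 genes, where 2.20% of all genes did. At an unadjusted p under 0.05 there were 4 of the 10, against 16% of all genes (Nfkb2, Nfkbia, Tnip1 and Icam1). In these 4 all ISRIB libraries lay below all vehicle libraries, against 4.39% of all genes tested, and in none of the 10 did they all lie above, against 4.26% (8.65% in either direction). Of the 10 estimates 7 were negative and 3 positive, with a median log2 fold change of -0.14 beside -0.00014 for all genes tested. DESeq2 called 1 of the 10, Nfkb2, and limma-voom called 0.

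Nfkb2 (ENSMUSG00000025225, chromosome 19, 46304320 to 46312385 in GRCm38, as all gene positions here) codes for the precursor of the non-canonical subunit. It stood at 55.9, 56.6, 57.2 and 53.5 CPM in vehicle libraries 1 to 4, and at 43.7, 49.7, 41.0 and 51.7 CPM in ISRIB libraries 1 to 4. All ISRIB values lay below all vehicle values, with ISRIB 3 lowest and ISRIB 4 nearest to the vehicle range. Its estimate on the log2 scale was -0.26 (SE 0.073, adjusted p 0.0736 by edgeR). It passed with DESeq2 (adjusted p 0.0390), without the filter on low counts (0.0156) and without ISRIB 4 (0.0446), and the adjusted p ran from 0.0156 to 0.174 over all alternatives. Exons of Nfkb2 overlap the opposite-strand models Psd and AC114539.1. Whether strand was used in counting was not given in the sources used here, so reads of such partners may not be told apart.

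Nfkbia (ENSMUSG00000021025, chromosome 12, 55489410 to 55492647), the IkB-alpha gene with the match close to its start, was also lower in all ISRIB libraries. Vehicle libraries held 49.1, 47.9, 49.7 and 53.7 CPM, and ISRIB libraries 46.0, 41.6, 43.2 and 36.8 CPM. The groups did not overlap, ISRIB 4 being lowest. Its log2 fold change was -0.25 (SE 0.073, adjusted p 0.0832 by edgeR). The call was made without the filter on low counts (adjusted p 0.0313) and without ISRIB 1 (0.0494), and over all alternatives the adjusted p ran from 0.0313 to 0.207.

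Icam1 (ENSMUSG00000037405, chromosome 9, 21015985 to 21028817) codes for the surface protein that leukocyte integrins bind. It stood at 522, 551, 514 and 567 CPM in vehicle libraries and at 444, 501, 494 and 494 CPM in ISRIB libraries. The gap between the groups was narrow, from 501 to 514 CPM, and ISRIB 1 stood apart below the rest. Its log2 fold change was -0.16 (SE 0.054, adjusted p 0.159 by edgeR), and the adjusted p was 0.0818 to 0.314 over all alternatives. Exons of Icam1 overlap the opposite-strand model Gm47079. Tnip1 (ENSMUSG00000020400, chromosome 11, 54910785 to 54962917), an adaptor that brings the Tnfaip3 product to its targets, stood at 25.9, 28.4, 30.0 and 25.6 CPM in vehicle and at 24.1, 24.7, 23.3 and 25.4 CPM in ISRIB libraries. Here the groups were separated by less than 1 CPM, and the log2 fold change was -0.18 (SE 0.078, adjusted p 0.272 by edgeR).

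The other 6 genes overlapped between vehicle and ISRIB. Tnfaip3, which codes for a ubiquitin-editing enzyme that shuts the canonical branch, stood at -0.16 on the log2 scale (SE 0.11, adjusted p 0.511, edgeR), with ISRIB 3 alone below the vehicle range. For Rela the value was 0.11 (SE 0.058) and for Relb 0.19 (SE 0.11), with adjusted p of 0.352 and 0.404 by edgeR. Rela overlapped through vehicle 3 and Relb through ISRIB 2. Nfkb1 at 0.0084 (interval -0.10 to 0.12) and Birc3 at -0.0027 (interval -0.12 to 0.12) had 95% intervals that allow changes of up to 0.12 either way. Tnip3, the least abundant at 14 to 38 counts per library, had the widest interval, -0.65 to 0.41 around -0.12.

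**Figure D2:**
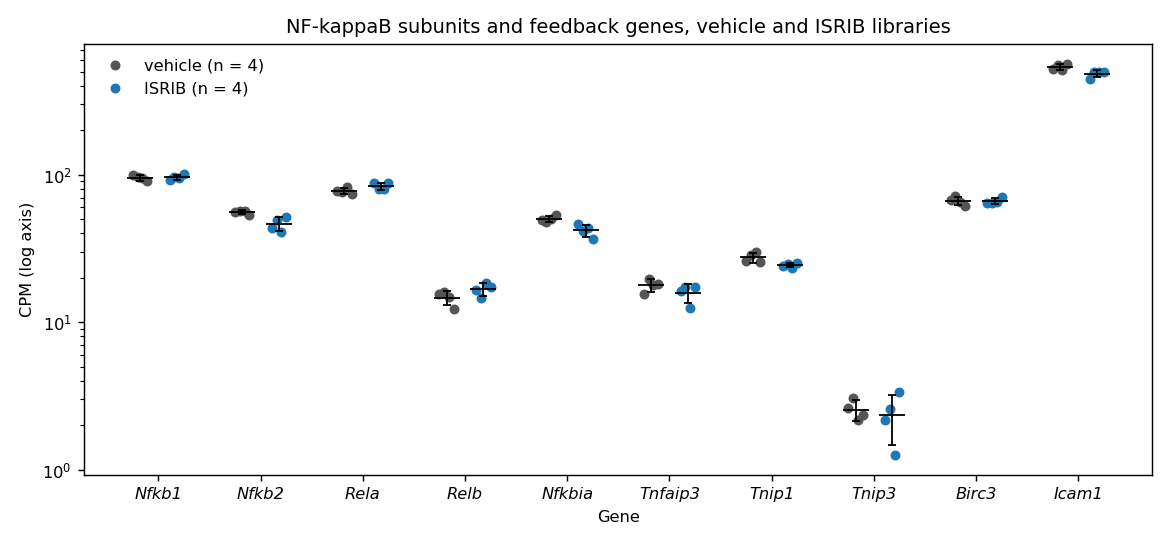
CPM on a log axis for each gene in the 4 vehicle and 4 ISRIB libraries (points), with the mean and SD (black). Nfkb2, Nfkbia, Tnip1 and Icam1 have every ISRIB library below every vehicle library, and the other 6 genes overlap.

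Ratios within a library need no scaling between libraries, and 4 pairs were read after the levels had been seen, with no test. The log2 ratio of Nfkb2 to Nfkb1 per length, that is of the non-canonical to the canonical precursor, was 0.56 to 0.67 in vehicle and 0.19 to 0.44 in ISRIB libraries. The ratio of Nfkbia to Rela was 0.20 to 0.46 in vehicle and -0.32 to 0.03 in ISRIB libraries, so these groups did not overlap either. Nfkb2 and Nfkbia alone already separated the groups, so these ratios are not a further result. No share over other gene pairs was taken. Relb to Rela and Birc3 to its neighbour and paralog Birc2 overlapped.

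Bleomycin against naive asked how the same genes stood in AT2 cells 14 days after injury. Of the 10 genes 4 rose and none fell at an adjusted p of 0.05 by edgeR, against 20.5% of 11223 genes called, 11.2% higher and 9.31% lower. Those that rose were Icam1, Tnfaip3, Nfkb2 and Tnip3. At an unadjusted p under 0.05 there were 8 of the 10, against 33.3% of all genes. The median log2 fold change was 0.45, beside 0.0026 for all genes tested, with 9 estimates positive and 1 negative. Tnip3 passed the filter on low counts through the bleomycin libraries. Only 2 of 4 naive libraries reached the minimum, while 4 libraries had to. Passing in this way favours genes that are higher after bleomycin, so Tnip3 is counted here as a description. Without bleomycin 1 and 2, 3 of the 10 were called, Icam1, Tnfaip3 and Nfkb2.

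Icam1 rose, with all 5 bleomycin libraries above the naive range. Naive libraries 1 to 4 held 301, 283, 309 and 319.5 CPM, and bleomycin libraries 1 to 5 held 538, 636, 577, 595 and 509.6 CPM. The rise was 0.91 on the log2 scale (SE 0.11, adjusted p 1.49e-05 by edgeR), or 1.88-fold. Over the alternatives it stayed between 0.88 and 0.96 and passed in each.

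Icam1 is also known for its high level in alveolar type 1 cells, the flat cells that AT2 cells give rise to. Of 12 alveolar type 1 markers 11 were tested and 9 were called higher after bleomycin (Ager, Akap5, Emp2, Clic5, Pdpn, Aqp5, Gprc5a, Hopx and Sema3e). The 12 markers summed to 1552 to 1749 CPM in naive and 2334 to 2885 CPM in bleomycin libraries, without overlap. In bulk samples a change in the share of cells of a type and a change in RNA per cell cannot be told apart, and the part of these markers in the Icam1 result was not tested. Endothelial markers, from cells that also carry Icam1, summed to 22.4 to 35.2 CPM in naive and 25.1 to 83.5 CPM in bleomycin libraries, with Vwf and Cdh5 called higher among 6 tested of 8. Fibroblast markers summed to 3.87 to 10.4 and 18.1 to 117 CPM without overlap, with Col1a1, Col1a2 and Col3a1, the 3 tested of 8, called higher and Lum at 0 in every library. Their part was not tested either.

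Tnfaip3 (ENSMUSG00000019850, chromosome 10, 19000910 to 19015657), a brake gene with consensus matches, rose after bleomycin. Naive libraries held 16.4, 16.02, 12.01 and 12.8 CPM and bleomycin libraries 33.1, 22.9, 20.3, 24.1 and 25.7 CPM. No bleomycin value reached down to the naive range, and bleomycin 1, 1 of the 2 libraries with the lowest AT2 markers, was highest. On the log2 scale the change was 0.81 (SE 0.20, adjusted p 0.00727 by edgeR), a fold of 1.75, and it passed in every alternative (adjusted p 0.00208 to 0.0333). Without bleomycin 1 and 2 it was 0.70 (adjusted p 0.0211, edgeR).

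Of the genes of its adaptors, Tnip3 was called higher and Tnip1 was not. Tnip3 (ENSMUSG00000044162, chromosome 6, 65525313 to 65634040), an adaptor of the same family as Tnip1, stood at 2.01, 3.63, 2.10 and 2.68 CPM in naive libraries. Bleomycin libraries held 12.4, 13.9, 5.11, 7.12 and 3.17 CPM. Bleomycin 1 and 2, the libraries with the lowest AT2 markers and the highest fibroblast markers (55.0 and 117 CPM), were high, bleomycin 5 lay inside the naive range, and the naive values rest on 6 to 17 counts a library. Its log2 fold change was 1.64 (SE 0.46, adjusted p 0.0169 by edgeR). The call was lost with limma-voom (1.29, adjusted p 0.162), without naive 1 (1.54, 0.0545), without naive 3 (1.55, 0.0538) and without bleomycin 2 (1.37, 0.0526). Without both bleomycin 1 and 2 the value was 0.92 (adjusted p 0.172, edgeR). The part of these markers in the Tnip3 result was not tested. Tnip1 held 41.6, 32.7, 43.8 and 49.5 CPM in naive libraries and 56.6, 65.7, 48.0, 57.5 and 44.0 CPM in bleomycin libraries. Naive 4 lay above bleomycin 3 and 5, and the log2 fold change of 0.38 (SE 0.15) had an adjusted p of 0.0930 by edgeR.

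Among the subunits only Nfkb2 was called. Naive libraries held 29.9, 40.8, 43.8 and 38.2 CPM and bleomycin libraries 70.4, 45.5, 57.0, 47.3 and 52.9 CPM. The groups did not overlap, though bleomycin 2 at 45.5 was close to naive 3 at 43.8. It rose by 0.51 on the log2 scale (SE 0.16, adjusted p 0.0270 by edgeR), a fold of 1.43. With single libraries left out, the call was lost without naive 1 (0.41, adjusted p 0.109), naive 2 (0.55, 0.0515) or naive 4 (0.51, 0.0746). Bleomycin 1 was highest here too, and without bleomycin 1 and 2 the value was 0.46 (adjusted p 0.0356, edgeR).

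Relb (ENSMUSG00000002983, chromosome 7, 19606217 to 19629438), the partner of the processed Nfkb2 product, held 10.7, 4.91, 12.6 and 9.24 CPM in naive and 17.2, 13.4, 17.3, 11.1 and 16.2 CPM in bleomycin libraries. Bleomycin 4 alone fell into the naive range, and naive 2 was low at 23 counts. The log2 fold change was 0.71 (SE 0.27, adjusted p 0.0710 by edgeR), and it passed with limma-voom (0.85, adjusted p 0.0428) and without bleomycin 4 (0.80, 0.0388). The canonical pair had smaller estimates. Rela (ENSMUSG00000024927, chromosome 19, 5637483 to 5648130), the main activating subunit, differed by 0.27 (SE 0.16, adjusted p 0.245, edgeR), from 32.2 to 47.2 CPM in naive and from 39.0 to 57.9 CPM in bleomycin libraries. Nfkb1 (ENSMUSG00000028163, chromosome 3, 135584655 to 135691547), its partner, differed by 0.15 (SE 0.13, adjusted p 0.482, edgeR), from 58.7 to 85.8 and from 74.9 to 99.5 CPM, with naive 1 low. Both overlapped between the groups.

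The log2 ratio of Nfkb2 to Nfkb1 per length was 0.23 to 0.57 in naive and 0.68 to 0.90 in bleomycin libraries, again without overlap. Nfkb2 alone also separated these groups. The ratios of Relb to Rela, Nfkbia to Rela and Birc3 to Birc2 overlapped.

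Nfkbia, the first brake of the canonical branch, was above the naive range in all 5 bleomycin libraries without passing the threshold. It held 28.5, 27.8, 26.1 and 31.0 CPM in naive libraries and 33.9, 39.9, 36.7, 39.6 and 35.8 CPM in bleomycin libraries. Groups without overlap, bleomycin above, were found in 4 of the 10 genes (Nfkb2, Nfkbia, Tnfaip3 and Icam1), against 10.4% of all genes tested, and in none with bleomycin below, against 9.35% (19.7% in either direction). The log2 fold change was 0.39 (SE 0.14, adjusted p 0.0570 by edgeR), and it passed without bleomycin 1 (0.43, adjusted p 0.0385).

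Birc3 (ENSMUSG00000032000, chromosome 9, 7848699 to 7873186), a ubiquitin ligase that restrains cell death and non-canonical signalling, was the single one of the 10 with a negative estimate. Naive libraries held 78.2, 86.3, 74.5 and 88.5 CPM and bleomycin libraries 72.2, 59.9, 67.4, 75.2 and 71.4 CPM. Of the bleomycin libraries 4 lay below the naive range and bleomycin 4 inside it. The log2 fold change was -0.25 (SE 0.12, adjusted p 0.146 by edgeR).

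**Figure D3:**
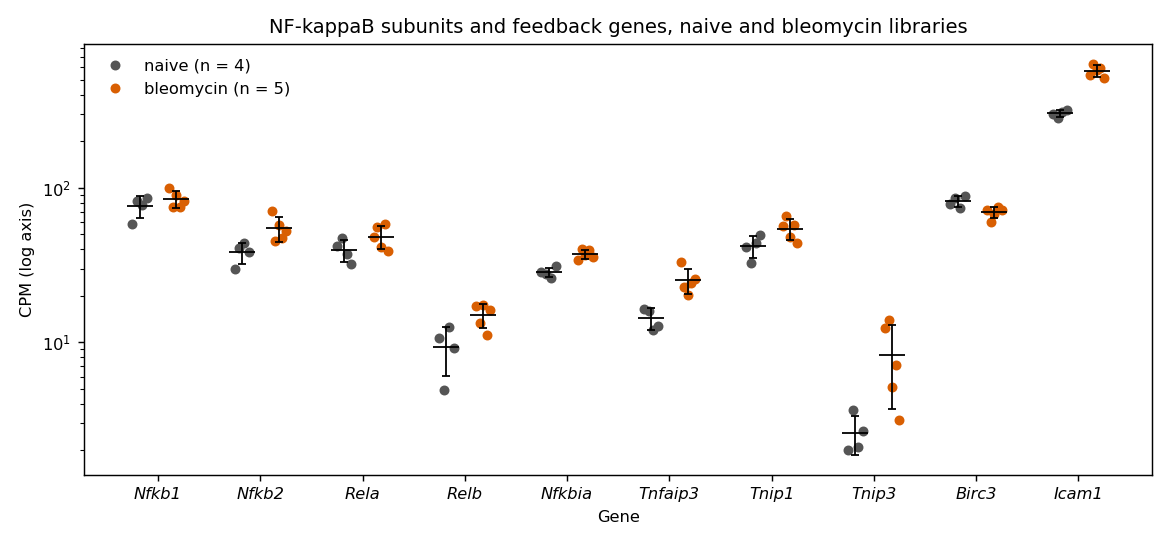
CPM on a log axis for each gene in the 4 naive and 5 bleomycin libraries (points), with the mean and SD (black). Nfkb2, Nfkbia, Tnfaip3 and Icam1 have every bleomycin library above every naive library, and Tnip3 is spread from 3.17 to 13.9 CPM after bleomycin.

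Set side by side, the log2 fold changes of Nfkb2 were -0.26 after ISRIB and 0.51 after bleomycin, those of Nfkbia -0.25 and 0.39, and those of Icam1 -0.16 and 0.91. For Tnfaip3 they were -0.16 and 0.81, for Tnip1 -0.18 and 0.38 and for Tnip3 -0.12 and 1.64. The other 4 had the same sign in both, with 0.0084 and 0.15 for Nfkb1, 0.11 and 0.27 for Rela, 0.19 and 0.71 for Relb, and -0.0027 and -0.25 for Birc3. After ISRIB the signs of Nfkb1, Birc3 and Tnip3 turned when single libraries were left out. Kit, RNA input, depth and controls differed between the comparisons, and the difference between these values was not tested. The input was 3 ng for the poly(A) and 0.35 ng for the total-RNA libraries.

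**Figure D4:**
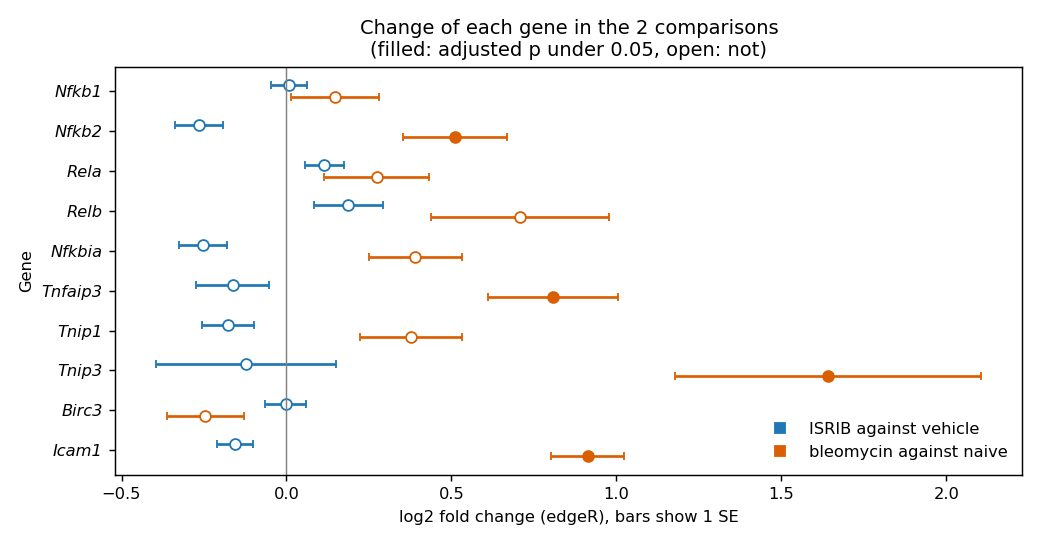
Log2 fold change with 1 SE (horizontal axis) of each of the 10 genes (rows) after ISRIB (blue) and after bleomycin (orange), filled where the adjusted p was under 0.05. The 4 filled points, all after bleomycin, are Nfkb2, Tnfaip3, Tnip3 and Icam1, and no ISRIB point is filled.

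The rest of the pathway was read from 7 lists of 111 genes outside the 10. After ISRIB 81 of them were tested and none was called by edgeR, against 2.20% of all genes, with a median log2 fold change of -0.0072. At an unadjusted p under 0.05 there were 19 of the 81, against 16% of all genes. DESeq2 and limma-voom called 0, and without the filter on low counts 7 were called higher and 1 lower, among 648 genes called in all. With the library number as a replicate block 2 were called higher. With single libraries left out at most 2 were called, 1 higher and 1 lower without ISRIB 2. By unadjusted p the list members nearest to a call were the prostaglandin synthase gene Ptgs2 (0.52, adjusted p 0.0546, edgeR) and the lymphotoxin beta receptor gene Ltbr (0.18, adjusted p 0.0810), both named after their values were seen. After bleomycin 80 were tested, 16 were called higher and 4 lower, with a median of 0.094. Of all genes tested 11.2% were called higher and 9.31% lower, 20.5% in either direction. Of the 16, Nfkbie, Tnfrsf21 and Mt2 reached the minimum of the filter in too few naive libraries to enter the test without the bleomycin libraries. Passing in this way favours genes that are higher after bleomycin, so they are counted as a description. Without bleomycin 1 and 2, 13 were called higher and 4 lower. Ligands were mostly too low to test, with 2 of 11 tested in each comparison.

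Among the other subunits and IkB genes 5 of 6 were tested after bleomycin, 2 rose and 1 fell. The shares of all genes were 11.2% higher and 9.31% lower. Nfkbie, which codes for the inhibitor IkB-epsilon, rose from 1.01 to 3.63 CPM in naive to 4.75 to 14.5 CPM in bleomycin libraries (log2 fold change 2.26, adjusted p 0.00171, edgeR), having passed the filter through the bleomycin libraries. Bcl3, an atypical IkB protein that works in the nucleus, rose from a mean of 17.4 to 30.5 CPM (0.82, adjusted p 0.0122) with overlapping groups, and Bcl3 overlaps the opposite-strand model Gm16175. Its call was lost without naive 1 (0.70, adjusted p 0.0530) and without naive 3 (0.71, 0.0529). Nfkbiz, another nuclear IkB gene, fell from 62.0 to 78.2 CPM in naive to 30.9 to 56.3 CPM in bleomycin libraries (-0.94, adjusted p 7.33e-04). The called genes of this list thus went both ways.

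Of 14 receptors tested after bleomycin 3 rose and 1 fell, against 11.2% of all genes called higher and 9.31% lower. Cd14, a co-receptor for bacterial lipopolysaccharide, rose from 10.04 to 18.4 CPM in naive to 35.6 to 63.0 CPM in bleomycin libraries (1.76, adjusted p 1.06e-05, edgeR). Ltbr, the receptor of the non-canonical branch, rose from 40.2 to 49.98 CPM in naive to 60.05 to 77.6 CPM in bleomycin libraries (0.57, adjusted p 0.00442). Tnfrsf21, a death receptor, was also called higher (2.92), but no naive library reached the minimum of the filter, and its mean was below the 5 CPM set for named genes. Tlr4, the lipopolysaccharide receptor, fell from 33.0 to 37.6 CPM in naive to 12.99 to 30.1 CPM in bleomycin libraries (-0.73, adjusted p 0.0230). The call for Tlr4 was lost without naive 1 (-0.72, adjusted p 0.0576), naive 2 (-0.73, 0.0557) or naive 4 (-0.71, 0.0670), and without both bleomycin 1 and 2 (-0.55, 0.0845).

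Of 20 adaptors and ubiquitin ligases 3 rose and 1 fell, against 11.2% of all genes called higher and 9.31% lower. In this list 10 estimates were positive and 10 negative. Malt1, a paracaspase of the complex that links several receptors to the kinases, showed the largest rise of the list, from 37.2 to 61.1 CPM in naive to 169 to 339 CPM in bleomycin libraries (2.33, adjusted p 5.69e-07, edgeR). Traf1, a receptor adaptor and known target, fell from 56.0 to 83.5 CPM in naive to 21.3 to 37.5 CPM in bleomycin libraries (-1.33, adjusted p 2.87e-05). Traf3, which holds the non-canonical branch in check, rose from a mean of 24.7 to 42.5 CPM (0.78, adjusted p 0.00904) with overlapping groups, a call lost without bleomycin 1 and 2 (0.53, adjusted p 0.0508). Myd88, the adaptor of IL-1 and Toll-like receptors, rose by 0.50 on the log2 scale (adjusted p 0.0281), a call lost when each of the 4 naive libraries in turn was left out (adjusted p 0.0604 to 0.0805) and without bleomycin 3 (0.37, 0.0780), and its exons overlap Acaa1a on the opposite strand.

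No kinase was called among 10 tested, and no gene among 12 further brakes, after bleomycin, against 20.5% of all genes. At an unadjusted p under 0.05 the first list held Ikbkb (-0.45, adjusted p 0.0509, edgeR), a catalytic subunit of the IkB kinase, and the other held Zc3h12a (0.93, 0.0707) and Rnf11 (0.29, 0.104). DESeq2, limma-voom and the other alternatives called at most 1 gene of the kinase list and 1 of the brakes. The alarmin gene Il33 was the ligand that rose, from 266 to 395 CPM in naive to 439 to 574 CPM in bleomycin libraries (0.58, adjusted p 0.00552, edgeR).

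Of 17 further target genes tested after bleomycin 7 rose and 1 fell, with a median of 0.51. Of all genes 11.2% were called higher and 9.31% lower. Mt2 and Cxcl1 (0.99, not called) reached the minimum of the filter in only 3 and 0 naive libraries, fewer than the filter needs. This way of passing favours genes that are higher after bleomycin, so the count and median of this list are a description. Lcn2, which codes for an iron-scavenging defence protein, rose from 165 to 217 CPM in naive to 687 to 1536 CPM in bleomycin libraries (2.49, adjusted p 1.44e-07, edgeR). The metallothionein gene Mt2 rose from 1.496 to 3.35 CPM in naive to 6.35 to 18.05 CPM in bleomycin libraries (1.88, adjusted p 0.00306), and its exons overlap the opposite-strand model Gm45774. Ier3, an early response gene, rose from 3.20 to 5.70 CPM in naive to 5.86 to 12.6 CPM in bleomycin libraries (1.10, adjusted p 0.0212), a call lost with limma-voom (0.0575) and without naive 1 (0.0584), naive 2 (0.0808), bleomycin 2 (0.0530) or both bleomycin 1 and 2 (0.0760). Cflar, which codes for an inhibitor of caspase activation, fell from 115 to 143 CPM in naive to 71.7 to 93.9 CPM in bleomycin libraries (-0.64, adjusted p 0.00106). The other 4 that rose, outside the rule for named genes, were Ptges (0.85), Tapbp (0.71, overlapped by Gm19412 on the opposite strand), Bcl2l1 (0.58) and Sod2 (0.52), named after their values were seen.

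**Figure D5:**
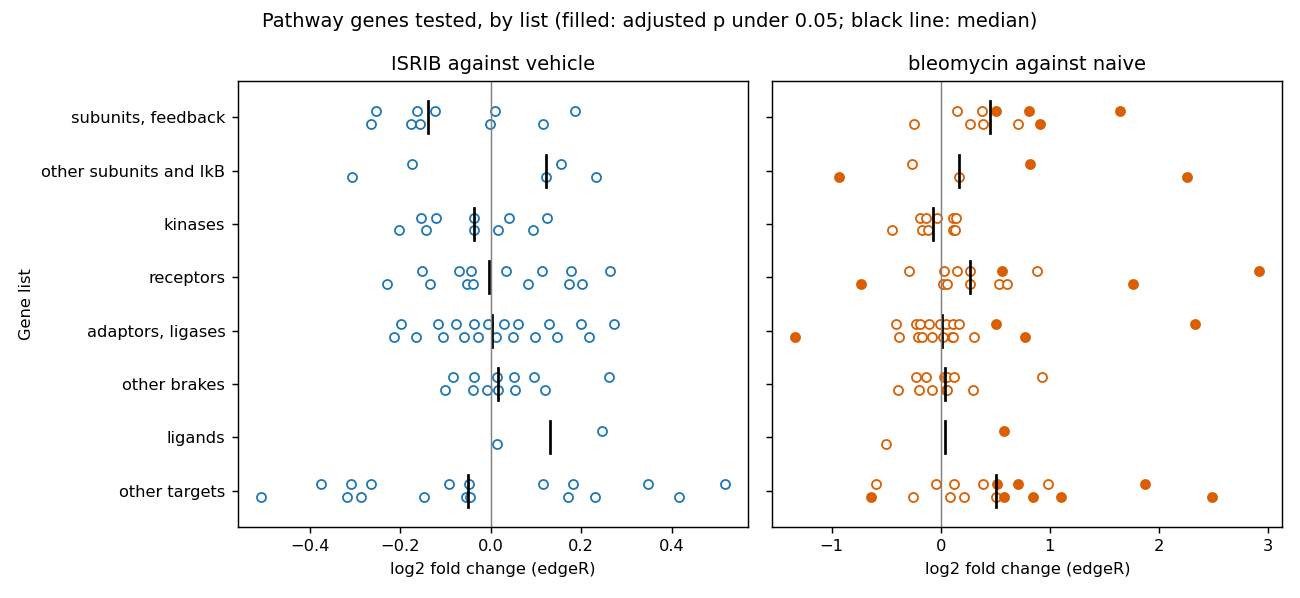
Log2 fold change of each tested gene (points) in the 10-gene set and in the 7 other lists (rows), after ISRIB (left) and after bleomycin (right, on a wider axis), with list medians as black lines and filled points at an adjusted p under 0.05. No point is filled after ISRIB, and after bleomycin filled points lie on both sides of 0.

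Likeness between genes was read from deviations of log2 CPM from the group means, as a description over 8 poly(A) or 9 total-RNA libraries. The nearest of 9519 genes were Hmgb2 and Cpt2 for Nfkb1 (Pearson r 0.99 and 0.97), Col23a1 and Rpl27 for Nfkbia (0.98 and 0.97), Bbs1 and Adamts10 for Tnfaip3 (0.97 and 0.96) and Zc3h15 and Zfp738 for Icam1 (0.98 and 0.96) in the poly(A) libraries. In the total-RNA libraries, among 9629 genes, they were Nck1 and A430110C17Rik for Nfkb1 (0.95 each), Tbc1d9b and Noxo1 for Nfkbia (0.92 each), Gcc2 and Gm38375 for Tnfaip3 (0.96 and 0.94) and Atp5k and Wdr19 for Icam1 (0.97 and 0.96). These are the highest of 9519 or 9629 correlations over few libraries that share depth within a column, and no test is given. Other members were compared where their mean was at least 5 CPM, which left out Tnip3 in the poly(A) libraries. Among them, the nearest in the poly(A) libraries were Birc3 to Nfkb1 (0.82, rank 130), Nfkb2 to Tnfaip3 (0.72, rank 280), Nfkb2 to Icam1 (0.16, rank 3378) and Rela to Nfkbia (-0.20, rank 6248). In the total-RNA libraries they were Nfkb2 to Nfkb1 (0.89, rank 18), Tnip1 to Icam1 (0.82, rank 53), Icam1 to Nfkbia (0.67, rank 315) and Birc3 to Tnfaip3 (0.34, rank 1907).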

How the data were processed

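The authors deposited raw read counts per Ensembl gene ID, in 1 table per kit, as whole numbers that sum differently by library. Per the submitters' processing notes, bcl2fastq 2.19.1, FastQC, Trimmomatic 0.36, STAR 2.6.0 and HTSeq 0.11.2 were used with mm10. Strand setting and annotation release: not given in the sources used here. All 17 columns matched a library title. Symbols, positions and merged exon lengths came from GENCODE M21 (GRCm38), which held 42462 of 43430 IDs. Promoter windows came from RefSeq.

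Within each table, genes entered the test by filterByExpr (count of 10, total of 15), and counts were scaled by TMM and tested with edgeR 4.0.16 in R 4.3.3 (quasi-likelihood F test, two-sided, group only), with Benjamini-Hochberg adjustment over all genes tested. CPM use effective library sizes. The SE is the unshrunk log2 fold change over the root of F, and intervals are normal 95% intervals from it. The procedure was also run on simulated counts, whose settings and outcome are not given here, and no result above rests on that run. Alternatives used DESeq2 1.42.0, limma 3.58.1, other scaling, filters, a replicate block and each library left out. From each pathway list, the 3 largest rises and 3 largest falls among called genes of mean at least 5 CPM were named, and for Nfkb1, Nfkbia, Tnfaip3 and Icam1 the 2 genes with the highest Pearson r. Alternatives left the rest of the fit as it was. The members, lists and tests were chosen with earlier results of these data known. The ratios, the second motif and the fit without bleomycin 1 and 2 were added after values were seen.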

Additional observations from a re-analysis of the deposited data

Results flagged for a closer look

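Each of the 40 sets of values (10 genes in 4 groups) was checked for a library far from the others of its group, and 2 were picked out, where chance alone picks about 1 in 20 groups. Icam1 in ISRIB 1 was 444 CPM, while the other 3 ISRIB libraries held 494 to 501 CPM. Birc3 in ISRIB 4 was 71.0 CPM, while the other 3 held 64.7 to 64.8 CPM.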

How the results depend on the processing

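After bleomycin the count of 4 called members ranged from 2 (without naive 1) to 5 when single libraries were left out. Icam1 and Tnfaip3 passed in all 16 alternatives each. Without both bleomycin 1 and 2, an alternative chosen after seeing the data, 3 members and 2298 genes were called. After ISRIB the count of 0 became 1 with DESeq2 and 2 without the filter on low counts, and ranged from 0 to 1 when single libraries were left out. Of all genes, 265 were called after ISRIB, 408 with DESeq2, 648 without the filter, and 86 to 269 when single libraries were left out (86 without vehicle 1, 102 without vehicle 2 and 159 without ISRIB 4). After bleomycin 2304 genes were called, and 1554 to 2584 when single libraries were left out. After ISRIB the sign of estimates near 0 turned when single libraries were left out. Birc3 ranged from -0.040 to 0.033 (positive without vehicle 1 or 2, or ISRIB 1, 2 or 3), Nfkb1 from -0.019 to 0.032 (negative without vehicle 4 or ISRIB 4) and Tnip3 from -0.33 to 0.071 (positive without ISRIB 3). No member's sign turned after bleomycin. The cause of these changes was not tested. Deviations of same-numbered libraries correlated at -0.12 to 0.10 (ISRIB) and -0.05 to 0.07 (bleomycin). The best match was the own number in 0 of 4 and 1 of 4 pairs. These values cannot show whether same-numbered libraries shared a batch or a day. With the number as a replicate block 0 members and 277 genes were called after ISRIB, and 3 members and 2187 genes after bleomycin, where Nfkb2 had an adjusted p of 0.0545 (0.51). Counts of 6 to 17 in naive libraries limit what can be said of Tnip3.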
